A study of Mus musculus with 8 samples.

Results

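The SLC25 carriers are the nuclear-encoded proteins that let metabolites, nucleotides, cofactors and iron cross the inner mitochondrial membrane. All genes of the deposited heart table with the type protein_coding and a name of Slc25a followed by a digit were taken as members, which gave 47 of 55383 rows. Of these, 39 reached 10 normalized counts in 2 or more of the 4 hearts compared and could be tested. In hearts that had lost mtSSB, the protein that coats single-stranded mtDNA, no carrier passed the test over all genes in either direction. The smallest p-values belonged to Slc25a39 and Slc25a33, which were higher in both knockout hearts than in either control, and to Slc25a34 and Slc25a22, which were lower in both.

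RNA of the whole heart was sequenced from mice about 5 weeks old, all inbred on C57BL/6N. The knockouts are Ssbp1loxP/loxP, +/Ckmm-cre mice, in which Cre under the muscle creatine kinase promoter removes Ssbp1, the mtSSB gene, from cardiomyocytes and skeletal muscle, while the controls carry Ssbp1loxP/loxP without Cre. The labels name these genotypes Ssbp1-/- and Ssbp1+/+, describe the Cre cross for every sample, but give no Cre status for single mice. Here 2 knockout and 2 control hearts were compared, and the other 2 of 6 mice, whose title and genotype field contradict each other, were left out. Heart cells other than cardiomyocytes keep Ssbp1, and in whole-heart RNA fewer cells of a type and less RNA per cell cannot be told apart.

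Carriers of this family bind a substrate from 1 side of the membrane and release it on the other, usually in exchange for another substrate. In the heart, the exchange of ADP for ATP and the import of phosphate feed ATP synthesis, the carnitine carrier brings in fatty acyl groups, and the aspartate/glutamate and oxoglutarate carriers form the malate-aspartate shuttle, which moves reducing equivalents into mitochondria. Further carriers bring in cofactors, pyrimidine nucleotides for mtDNA and RNA synthesis, glutathione and iron.

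The 4 libraries held 19716305 to 25682093 reads, of which 6568812 to 11259234 fell on nuclear genes. Ssbp1 itself had normalized counts of 170 and 163 in the knockouts and 177 and 216 in the controls, a log2 fold change of -0.23 (limma: SE 0.16, adjusted p = 0.890). This is a weak check of the labels, since cells without Cre and exons that are not deleted can add to the gene's reads. How much they add was not tested. Summed over their lists, the cardiomyocyte markers (Myh6, Tnnt2, Actc1, Myl2, Tnni3, Ryr2) had 557373 and 538182 normalized counts in the knockouts and 562536 and 526471 in the controls. All 6 were tested and none was called by limma. Skeletal muscle markers (Myh4, Myh1, Myh2, Actn3) summed to at most 7.41 in any heart. The fibroblast markers (Col1a1, Pdgfra, Dcn, Lum) summed to 5093 and 5140 in the knockouts and 6176 and 6106 in the controls, so those sums did not overlap. Of the 4 genes, Col1a1 overlapped and 3 did not, against 35.6% of all genes, and none was called by limma. The sums of endothelial, smooth muscle and macrophage markers overlapped between the groups. Of the 4 macrophage markers, 1 did not overlap, and none was called by limma. The part of these marker differences in the carrier values was not tested.

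Which carriers the heart expresses was read from the normalized count per kb of exon length, since counts of different genes can be compared only per length. The ADP/ATP carrier Slc25a4, the isoform of heart and muscle, stood far above the rest. Its level per kb was 13710 and 13266 in the knockouts and 14415 and 14452 in the controls. Slc25a4 alone made up 65.4% and 65.4% of the summed per-kb level of all carriers in the knockouts and 67.2% and 67.4% in the controls. With Slc25a11, Slc25a3 and Slc25a5 it made up 86.0 to 86.5% of that sum in each of the 4 hearts. These 4 genes held most of the carrier RNA of these hearts.

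Below Slc25a4 came Slc25a11, which exchanges oxoglutarate for malate, with 1550 and 1499 per kb in the knockouts and 1649 and 1487 in the controls. The phosphate carrier Slc25a3 had 1477 and 1464 per kb in the knockouts and 1448 and 1391 in the controls. Slc25a5, the ADP/ATP carrier of many tissues, had 1302 and 1336 per kb in the knockouts and 1034 and 1201 in the controls. These 3 carriers lay close together per kb. Slc25a34, for which no substrate is assigned here, was next with 467 and 419 per kb in the knockouts and 534 and 687 in the controls. Slc25a13 (citrin) had 341 and 326 per kb in the knockouts and 356 and 349 in the controls, and Slc25a20, the carnitine/acylcarnitine carrier, had 253 and 247 in the knockouts and 255 and 254 in the controls. Slc25a12 (aralar) had 251 and 227 per kb in the knockouts and 244 and 235 in the controls. Ordered by the control mean, the first 12 carriers kept control ranges that did not overlap with the next in order, whereas 21 of the 38 neighbouring pairs in the whole order overlapped. In the 4 hearts together the ranges of Slc25a20, Slc25a12 and Slc25a39 ran into each other.

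Of the 47 carriers, 11 had a control mean of at least 100 per kb, 26 lay between 10 and 100, and 2 tested carriers, Slc25a14 and Slc25a53, lay under 10. Exon length is the union of all annotated exons of a gene, 5550 bases for Slc25a3 and 2353 for Slc25a4, so a gene with long alternative exons receives a lower value. In normalized counts without length, Slc25a3 (8035 and 7721 in the controls) stood above Slc25a11 (3495 and 3152), so their order depends on the length used. By such counts Slc25a4 made up 54.8% and 54.9% of the carrier sum in the knockouts and 56.5% and 57.2% in the controls. The 8 carriers that were not tested had few reads or none. Over the 4 hearts Slc25a2, an ornithine carrier, had 16 reads (normalized counts of 4.12 and 3.83 in the knockouts and 1.95 and 5.39 in the controls), Slc25a31, the ADP/ATP carrier of testis, 13, and Slc25a43 12. Slc25a18, a glutamate carrier, had 6 reads, Slc25a21, a carrier of oxoadipate, 4, and Slc25a48 2. Slc25a41 and Slc25a54, relatives of the ATP-Mg carriers, had 0 reads in each heart, which allows up to 3 reads per library, or normalized counts of 2.30 to 2.47 in the knockouts and 2.93 to 4.04 in the controls, for counting error only.

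**Figure D1:**
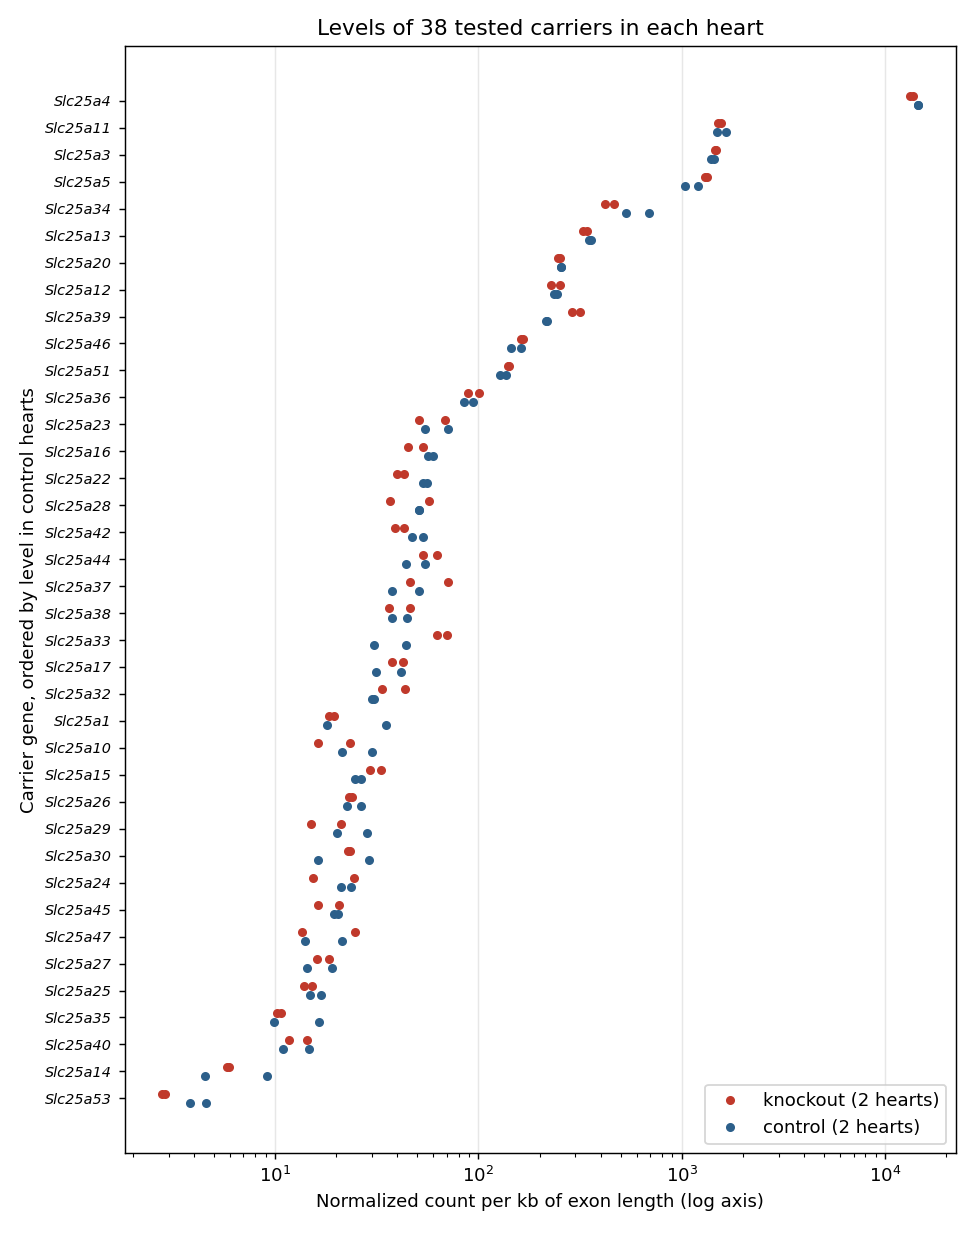
Normalized count per kb of exon length (horizontal log axis) of 38 tested carriers (vertical axis, ordered by the mean of the controls) in 2 knockout hearts (red, upper point row of each gene) and 2 control hearts (blue, lower point row). Slc25a4 lies between 13266 and 14452 per kb, and Slc25a53 at the foot has a control mean of 4.19.

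Some carriers are neighbours in the genome (GENCODE vM21, GRCm38). Slc25a29, a carrier of basic amino acids, lies on the minus strand of chromosome 12 up to position 108835883, and Slc25a47 lies on the plus strand with 162 bases between them. Slc25a29 had normalized counts of 55.2 and 39.02 in the knockouts and 74.3 and 52.5 in the controls. Slc25a47 had 74.1 and 40.5 in the knockouts and 63.5 and 41.8 in the controls. In both groups replicate 1 had more of both genes than replicate 2, and no such share was taken over other gene pairs. Deviations of same-numbered hearts also correlated across all 14522 genes tested, at 0.314. The other close neighbours pair an expressed carrier with one at or near 0. Slc25a23 lies 2056 bases from Slc25a41 on chromosome 17, Slc25a24 lies 6461 bases from Slc25a54 on chromosome 3, and Slc25a5 lies 18448 bases from Slc25a43 on chromosome X.

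Whether loss of mtSSB changed the carriers was asked with limma on log2(normalized count + 1) over 14522 genes. Limma called 0 of the 39 carriers at an adjusted p under 0.05, against 0.117% of all genes tested (0.0757% higher and 0.0413% lower in the knockouts). The adjusted p of the carriers ran from 0.530 to 0.997. At an unadjusted p under 0.05 there were 4 carriers (10.3%), against 6.11% of all genes, 2 of them higher in the knockouts (3.08% of all genes) and 2 lower (3.02%). From recovered whole reads, edgeR called 0 carriers (0.131% of all genes, lowest adjusted p 0.434), with 4 carriers at an unadjusted p under 0.05, against 6.11% of all genes. DESeq2 called 0 as well (0.427% of all genes, lowest adjusted p 0.259), with 3 carriers at an unadjusted p under 0.05, against 3.62% of all genes.

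The carriers as a list lay close to all genes. A log2 fold change above 0 was found in 16 of the 39 (41.0%), against 50.5% of all genes. Their median log2 fold change was -0.04, beside 0.00 for all genes tested, and their median absolute log2 fold change was 0.15, beside 0.16. Both knockouts lay above both controls in 8 carriers (20.5%, against 18.1% of all genes) and below them in 8 (20.5%, against 17.5%). Without control replicate 1 the median turned to 0.05, and without control replicate 2 it was -0.13. The log2 fold changes ran from -0.54 for Slc25a53 to 0.84 for Slc25a33, and Slc25a33 alone exceeded 1.5-fold in either direction. For 16 of the 39 carriers the 95% interval of limma lay within a 1.5-fold change either way.

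**Figure D2:**
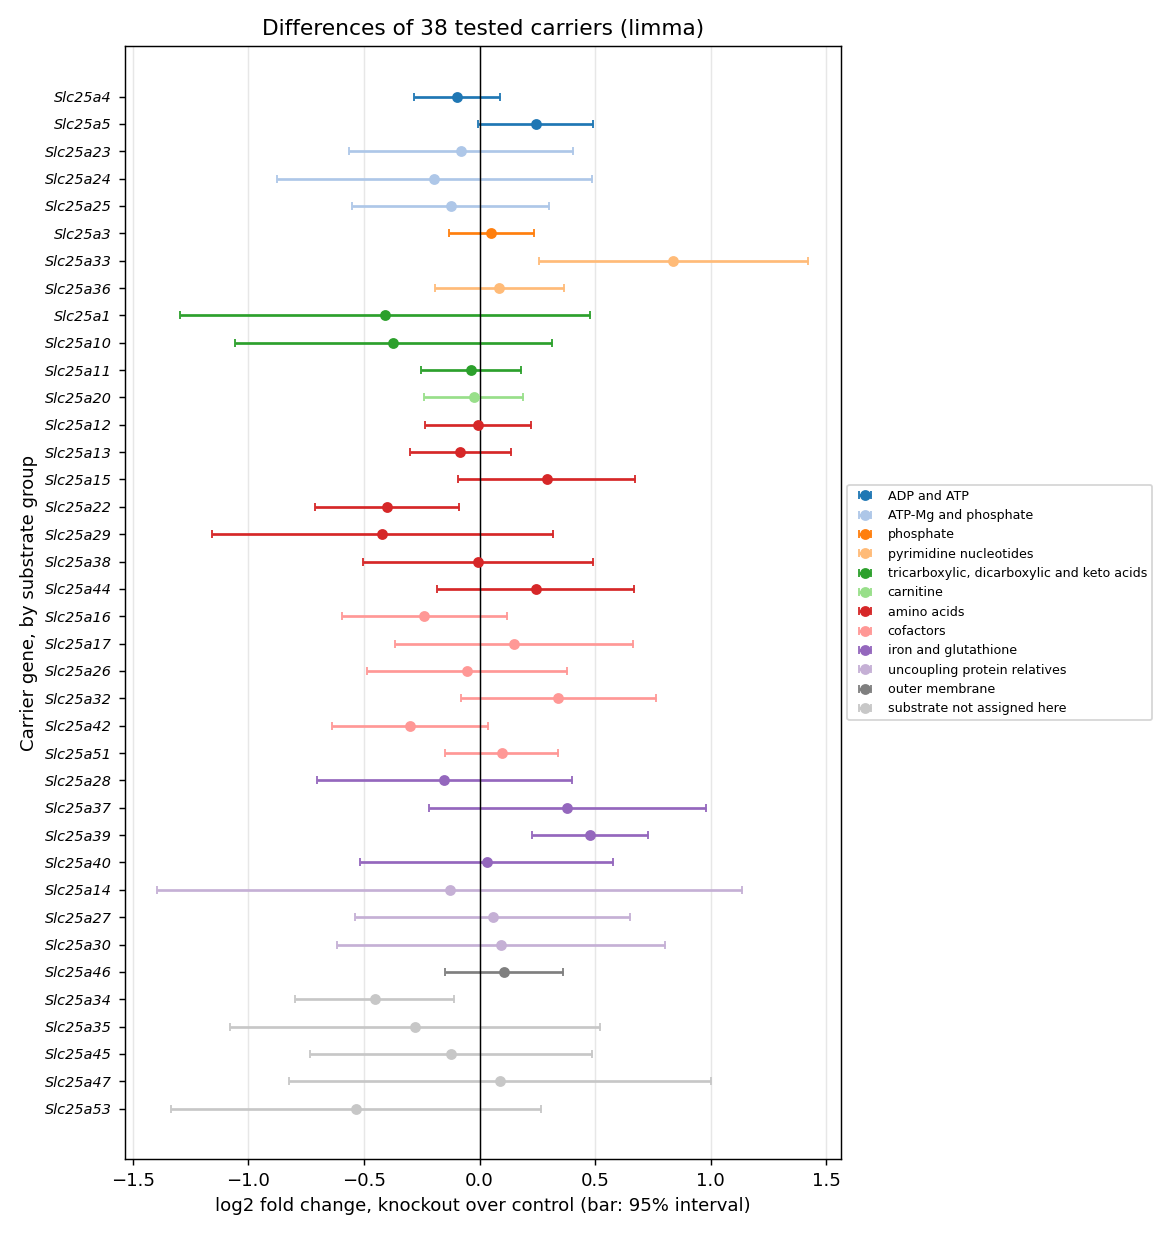
Log2 fold change of knockout over control hearts (horizontal axis) for 38 tested carriers (vertical axis, coloured by substrate group), with 95% intervals from limma and 2 hearts per group. The points run from -0.54 (Slc25a53) to 0.84 (Slc25a33), and 4 intervals leave out 0, with no carrier called over all genes.

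Slc25a39 and Slc25a33 had the smallest p-values among the carriers that were higher in the knockouts. Slc25a39, which brings glutathione into mitochondria, had normalized counts of 867 and 797 in the knockouts and 598 and 595 in the controls. Both knockouts lay above both controls, and the gap was larger than the difference between hearts of a group. Its log2 fold change was 0.48 (limma: SE 0.10, unadjusted p = 0.00336, adjusted p = 0.530), or 1.39-fold. Slc25a33, which imports pyrimidine nucleotides, had 133 and 118 in the knockouts and 57.7 and 83.5 in the controls. Again the groups did not overlap, while the controls differed from each other more than the knockouts did. Its log2 fold change was 0.84 (limma: SE 0.24, unadjusted p = 0.0123, adjusted p = 0.680), or 1.79-fold. Leaving out control replicate 1 gave 0.58, and leaving out control replicate 2 gave 1.103.

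Slc25a34 and Slc25a22 had the smallest p-values among the carriers that were lower in the knockouts. Slc25a34 had normalized counts of 1246 and 1118 in the knockouts and 1425 and 1834 in the controls. The groups did not overlap, and control replicate 2 stood well above the other hearts. Its log2 fold change was -0.45 (limma: SE 0.14, unadjusted p = 0.0179, adjusted p = 0.748). Leaving out control replicate 1 gave -0.63, and leaving out control replicate 2 gave -0.27. Slc25a22, a glutamate importer, had 257 and 238 in the knockouts and 320 and 334 in the controls. Hearts of a group lay close together, with both knockouts below both controls. Its log2 fold change was -0.40 (limma: SE 0.13, unadjusted p = 0.0196, adjusted p = 0.753). DESeq2 gave an unadjusted p of 0.0676 for Slc25a22, and the other 3 carriers stayed under 0.05 in limma, edgeR and DESeq2.

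**Figure D3:**
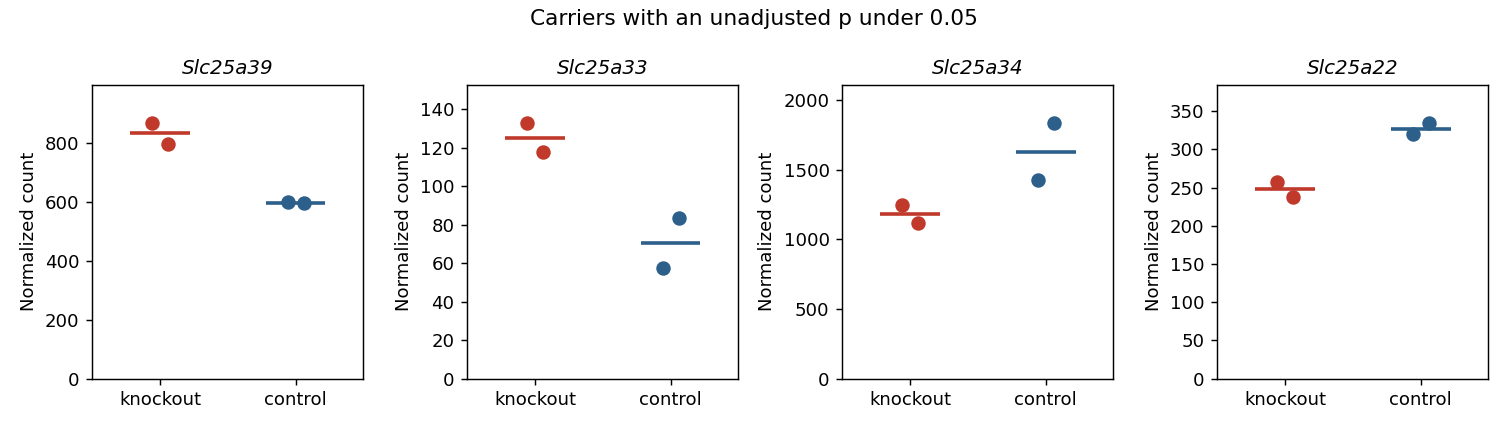
Normalized counts (vertical axes from 0) of the 4 carriers with an unadjusted p under 0.05 in 2 knockout and 2 control hearts (horizontal axis). Points are hearts and bars group means, with Slc25a39 at 867 and 797 in the knockouts against 598 and 595 in the controls.

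In GRCm38 (GENCODE vM21) the gene Slc25a39 spans chr11:102402985-102407946, Slc25a33 chr4:149744036-149774277, Slc25a34 chr4:141618824-141623821 and Slc25a22 chr7:141429744-141437892, all on the minus strand. The stretches before the RefSeq starts of these 4 genes are shown because they are the carriers with the smallest p-values. Elements of known regulators can be looked for in them. RefSeq promoter windows (GRCm38.p6, 250 bases before to 50 after the start) matched 36 of the 47 carriers. Searched on both strands were TGATGNAA, the composite element of ATF4 and C/EBP factors, AAGGTCA, an element of estrogen-related receptors, and CACGTG, the E-box. TGATGNAA stood in the windows of 0 of the 36 carriers, against 4.51% of all genes with a window. AAGGTCA stood in 1 carrier, Slc25a34, against 5.38% of all genes, and CACGTG in 7 carriers (Slc25a1, Slc25a13, Slc25a14, Slc25a15, Slc25a31, Slc25a33 and Slc25a36), against 8.09%. Below are the 250 bases before each start on the minus strand, 5′ to 3′, with matches in capitals, at chr11:102407518-102407767 for Slc25a39, chr4:149774268-149774517 for Slc25a33, chr4:141623835-141624084 for Slc25a34 and chr7:141437875-141438124 for Slc25a22, whose most upstream of 3 windows is given. The E-box of Slc25a33 begins 8 bases before the RefSeq start, and the match of Slc25a34 (as TGACCTT, on the other strand) 119 bases before it. RefSeq starts differ from the ends of the GENCODE spans above. By those spans the whole Slc25a39 stretch lies inside its gene. So do the last bases of the Slc25a33 stretch, which hold its E-box, and the last bases of the Slc25a22 stretch.
Slc25a39: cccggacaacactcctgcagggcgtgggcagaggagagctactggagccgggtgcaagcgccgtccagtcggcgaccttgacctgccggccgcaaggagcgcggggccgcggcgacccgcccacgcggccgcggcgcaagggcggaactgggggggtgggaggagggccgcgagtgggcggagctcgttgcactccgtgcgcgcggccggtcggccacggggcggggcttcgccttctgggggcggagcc
Slc25a33: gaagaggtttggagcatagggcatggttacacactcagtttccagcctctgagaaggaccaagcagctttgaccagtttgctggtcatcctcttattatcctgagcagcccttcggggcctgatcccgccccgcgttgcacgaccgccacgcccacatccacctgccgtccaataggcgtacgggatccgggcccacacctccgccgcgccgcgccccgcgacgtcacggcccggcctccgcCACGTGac
Slc25a34: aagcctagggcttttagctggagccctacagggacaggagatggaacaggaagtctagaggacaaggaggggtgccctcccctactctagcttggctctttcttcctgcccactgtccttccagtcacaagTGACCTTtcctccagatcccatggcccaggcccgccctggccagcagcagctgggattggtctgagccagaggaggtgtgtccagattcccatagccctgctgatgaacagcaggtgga
Slc25a22: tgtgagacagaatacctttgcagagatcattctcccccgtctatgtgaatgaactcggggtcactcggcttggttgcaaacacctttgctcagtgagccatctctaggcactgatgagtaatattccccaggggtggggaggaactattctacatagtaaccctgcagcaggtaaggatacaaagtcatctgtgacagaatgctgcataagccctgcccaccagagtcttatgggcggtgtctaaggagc

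The ADP/ATP carriers, the phosphate carrier and the ATP-Mg carriers supply mitochondria with adenine nucleotides and phosphate. Slc25a4 had normalized counts of 32261 and 31215 in the knockouts and 33918 and 34005 in the controls. Both knockouts lay just below both controls, by a log2 fold change of -0.10 (limma: 95% interval -0.28 to 0.09, adjusted p = 0.898). Slc25a5 had 2143 and 2199 in the knockouts and 1702 and 1976 in the controls, on the other side of its controls, with a log2 fold change of 0.24 (limma: 95% interval -0.01 to 0.49, adjusted p = 0.806) that became 0.14 on leaving out control replicate 1 and 0.35 on leaving out control replicate 2. The processed pseudogene Slc25a5-ps is listed at 0 in each heart, and reads that Salmon could split between Slc25a5 and other copies leave its value uncertain. Slc25a3 had 8196 and 8127 in the knockouts and 8035 and 7721 in the controls, and its 95% interval of -0.13 to 0.23 held any difference well under 1.5-fold. Slc25a23 and Slc25a24, calcium-regulated carriers that exchange ATP-Mg for phosphate, overlapped between the groups. Slc25a23 had 362 and 270 in the knockouts and 376 and 290 in the controls, and Slc25a24 had 52.7 and 84.2 in the knockouts and 72.3 and 80.8 in the controls. Slc25a25 of the same group had a log2 fold change of -0.13 (limma: adjusted p = 0.947).

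For both pyrimidine nucleotide carriers the values are set side by side. Slc25a36, the relative of Slc25a33, had 970 and 856 in the knockouts and 907 and 814 in the controls, so that its groups overlapped (limma: log2 fold change 0.09, 95% interval -0.19 to 0.37, adjusted p = 0.945). The ratio of Slc25a33 to Slc25a36, taken of normalized counts + 1, was 0.138 and 0.139 in the knockouts and 0.0646 and 0.104 in the controls, a log2 difference of 0.75. That difference became 0.41 on leaving out control replicate 1 and 1.096 on leaving out control replicate 2.

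Carriers of carboxylates, acylcarnitine and amino acids, which carry fuel and the malate-aspartate shuttle, had values close to the controls where they were abundant. Slc25a11 had normalized counts of 3287 and 3178 in the knockouts and 3495 and 3152 in the controls (limma: log2 fold change -0.04, 95% interval -0.26 to 0.18, adjusted p = 0.968). Slc25a12 had 1844 and 1665 in the knockouts and 1793 and 1726 in the controls, and Slc25a13 had 1295 and 1236 in the knockouts and 1353 and 1327 in the controls. Slc25a20 had 1226 and 1196 in the knockouts and 1233 and 1231 in the controls. The 95% intervals of these 4 carriers all lay within a 1.5-fold change, and the sign of Slc25a11 and Slc25a12 turned when single hearts were left out. The citrate exporter Slc25a1 and the dicarboxylate carrier Slc25a10 were low and spread widely, with log2 fold changes of -0.41 (95% interval -1.30 to 0.48) and -0.37 (-1.06 to 0.31). Slc25a1 had 42.0 and 39.8 in the knockouts and 76.2 and 39.1 in the controls, so that a single control stood apart, and without that heart, control replicate 1, its log2 fold change was 0.06. Slc25a10 had 56.0 and 81.1 in the knockouts and 104 and 74.1 in the controls.

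Among amino acid carriers, Slc25a15, the main ornithine carrier, had 186 and 166 in the knockouts and 149 and 139 in the controls. Both knockouts lay above both controls, with a log2 fold change of 0.29 (limma: 95% interval -0.09 to 0.67, adjusted p = 0.837). Slc25a44, an importer of branched-chain amino acids, had 224 and 192 in the knockouts and 194 and 158 in the controls, and Slc25a38, which imports glycine for heme synthesis, 126 and 100 in the knockouts and 123 and 104 in the controls. Both overlapped between the groups. Of the 7 amino acid carriers tested, 2 had a positive log2 fold change (50.5% of all genes did), 1 lay with both knockouts above both controls (18.1% of all genes) and 2, Slc25a22 and Slc25a13, with both below (17.5% of all genes).

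Cofactor carriers went in both directions. Slc25a32, which imports folate or FAD, had 266 and 204 in the knockouts and 182 and 186 in the controls, with both knockouts above both controls (limma: log2 fold change 0.34, 95% interval -0.08 to 0.76, adjusted p = 0.815). Its log2 fold change was 0.15 without knockout replicate 1 and 0.53 without knockout replicate 2. Slc25a42, which imports coenzyme A, had 234 and 257 in the knockouts and 322 and 284 in the controls. Slc25a16, linked to coenzyme A as well, had 257 and 217 in the knockouts and 271 and 287 in the controls. Both of these lay with the knockouts below the controls, with log2 fold changes of -0.30 and -0.24 (limma: adjusted p = 0.810 and 0.862), and that of Slc25a16 was -0.12 without knockout replicate 2. The NAD carrier Slc25a51 had 769 and 783 in the knockouts and 754 and 701 in the controls, a log2 fold change of 0.10 (95% interval -0.15 to 0.34). Slc25a17 and Slc25a26, carriers of peroxisomal cofactors and of S-adenosylmethionine, overlapped between the groups, with log2 fold changes of 0.15 and -0.05.

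The iron carriers Slc25a37 and Slc25a28 differed more between hearts than between groups. Slc25a37 (mitoferrin 1), the mitochondrial iron importer best known from red blood cell precursors, had 277 and 425 in the knockouts and 307 and 226 in the controls. Knockout replicate 2 stood apart from the other hearts, and the groups overlapped. Its log2 fold change was 0.38 (limma: SE 0.25, adjusted p = 0.876), and 0.07 without knockout replicate 2. The same heart was high in erythroid markers. Alas2, the heme synthesis enzyme of erythroid cells, had 310 and 796 in the knockouts and 362 and 230 in the controls. The beta globin gene Hbb-bs had 6949 and 19142 in the knockouts and 8837 and 6605 in the controls. Hba-a1, Hba-a2 and Hbb-bt were also highest in knockout replicate 2, and none of these 5 erythroid genes was called by limma. Their part in the Slc25a37 value was not tested.

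Slc25a28 (mitoferrin 2), the isoform of most tissues, had 214 and 138 in the knockouts and 192 and 191 in the controls. It was lowest in the heart in which Slc25a37 was highest. The ratio of Slc25a28 to Slc25a37 was 0.775 and 0.327 in the knockouts and 0.625 and 0.846 in the controls, with overlapping groups, and the log2 difference of -0.53 became 0.09 without knockout replicate 2. Slc25a40, the close relative of Slc25a39, had 98.0 and 120 in the knockouts and 123 and 91.6 in the controls (log2 fold change 0.03, 95% interval -0.52 to 0.58).

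**Figure D4:**
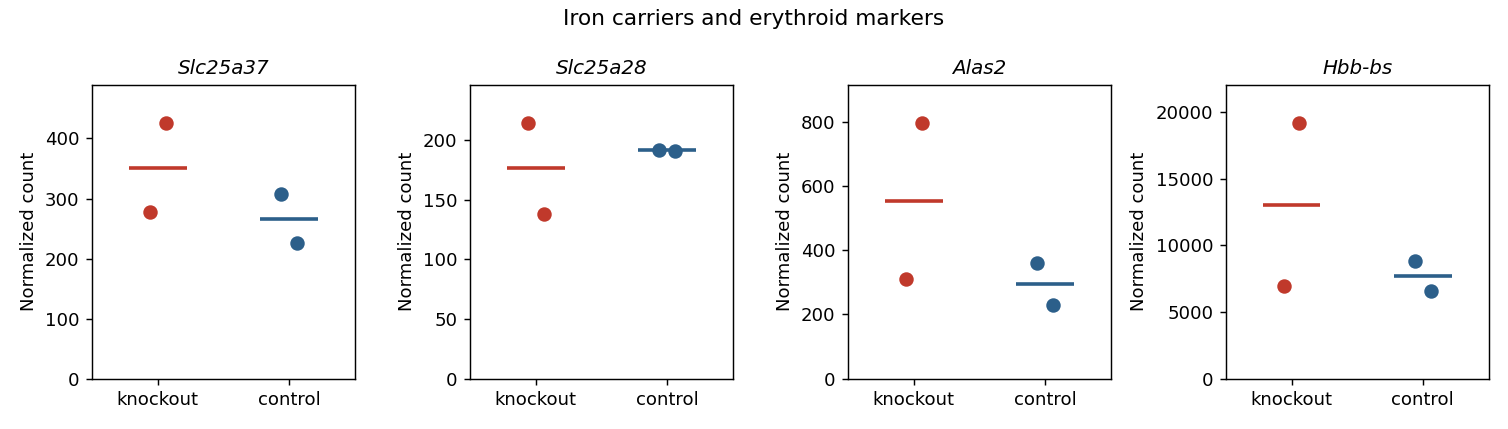
Normalized counts (vertical axes from 0) of the iron carriers Slc25a37 and Slc25a28 and of the erythroid markers Alas2 and Hbb-bs in 2 knockout and 2 control hearts (horizontal axis). Points are hearts and bars group means. Knockout replicate 2 holds the highest Slc25a37 (425) and Alas2 (796) and the lowest Slc25a28 (138).

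The remaining tested members were the outer membrane protein Slc25a46, which acts in mitochondrial shape, the relatives of uncoupling proteins and carriers with no substrate assigned here. Slc25a46 had 901 and 877 in the knockouts and 781 and 876 in the controls, so that the lower knockout and the higher control nearly met (log2 fold change 0.10, 95% interval -0.15 to 0.36, and 0.02 without control replicate 1). Slc25a14, Slc25a27 and Slc25a30, the relatives of uncoupling proteins, overlapped between the groups, with log2 fold changes of -0.13, 0.06 and 0.09. Slc25a53 had 22.2 and 23.0 in the knockouts and 30.3 and 36.4 in the controls, the most negative log2 fold change of a carrier, with a 95% interval of -1.34 to 0.26. Slc25a35 and Slc25a45 had log2 fold changes of -0.28 and -0.12 and overlapped.

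Related carriers were also set against each other within each heart, as log2 ratios of normalized counts + 1 in 9 pairs. In 5 pairs the ratios of knockouts and controls did not overlap. Of single genes 35.6% did not overlap, and no such share was taken over ratios of other gene pairs. Each of the 5 pairs holds a carrier whose own groups did not overlap. An exact permutation test, two-sided, cannot go below p = 0.333 with 2 hearts against 2, so none of the 9 could pass. The ratio of Slc25a4 to Slc25a5 was 15.1 and 14.2 in the knockouts and 19.9 and 17.2 in the controls, a difference of -0.34 on the log2 scale (exact permutation p = 0.333, adjusted p = 0.600 over 9 pairs). In all 4 hearts Slc25a4 remained by far the more abundant of the 2 carriers per kb as well. The ratio of Slc25a39 to Slc25a40 was 8.76 and 6.59 in the knockouts and 4.83 and 6.44 in the controls, a log2 difference of 0.45 that was 0.24 without control replicate 1 or without knockout replicate 1. The ratio of Slc25a12 to Slc25a13 was 1.42 and 1.35 in the knockouts and 1.33 and 1.30 in the controls, a log2 difference of 0.08 that was 0.04 without knockout replicate 1. The remaining pair without overlap, Slc25a22 to Slc25a18, rests on 2 and 4 reads of Slc25a18 in the knockouts and 0 in the controls, so its log2 difference of -2.11 changed to -2.87 and -0.95 with pseudocounts of 0.5 and 5. The pairs Slc25a23 to Slc25a24, Slc25a15 to Slc25a2 and Slc25a16 to Slc25a42 overlapped, with log2 differences of 0.12, 0.10 and 0.06.

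**Figure D5:**
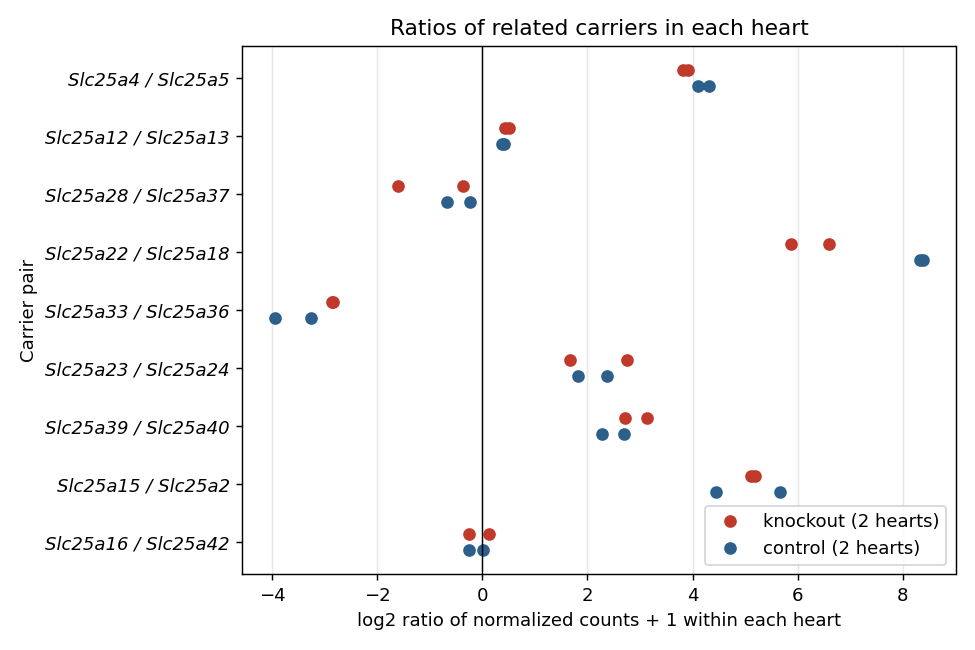
Log2 ratio of normalized counts + 1 of 2 related carriers within each heart (horizontal axis) for 9 pairs (vertical axis), with 2 knockout hearts (red, upper point row of each pair) and 2 control hearts (blue, lower point row). The ratio of Slc25a33 to Slc25a36 is higher in both knockouts, by 0.75 on the log2 scale, and that of Slc25a4 to Slc25a5 is lower in both, by 0.34.

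All 47 carriers together held 6653 and 6601 of each 1000000 nuclear normalized counts in the knockouts and 6839 and 6723 in the controls, 0.977-fold. Without Slc25a4 the others held 3005 and 2977 in the knockouts and 2975 and 2880 in the controls, 1.02-fold. The sum of the family thus differed by a few percent. Set against all rows of the table, mitochondrial RNA included, it turned to 2794 and 2894 per 1000000 in the knockouts and 2552 and 2240 in the controls, 1.19-fold. Mitochondrial features made up 58.0% and 56.2% of normalized counts in the knockouts and 62.7% and 66.7% in the controls.

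Genes that work beside the carriers were read from the same fit, and limma called none of them. Of the SLC25 genes under other names, 4 of 5 were tested, and Ucp1, the uncoupling protein of brown fat, is listed at 0 in each heart. Ucp3, the uncoupling protein of muscle, had 184 and 179 in the knockouts and 242 and 594 in the controls. Control replicate 2 stood far above the other hearts. The log2 fold change was -1.06 (limma: SE 0.39, adjusted p = 0.797). Limma called it without control replicate 1 (-1.71, adjusted p = 0.0329), where control replicate 2 is the lone control, and was -0.42 without control replicate 2. Mtch1, a relative in the outer membrane, had 612 and 649 in the knockouts and 730 and 602 in the controls, with overlapping groups.

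Of the 22 other transporters of the mitochondrial membranes, all were tested, and their median log2 fold change was -0.01. Vdac3, a pore of the outer membrane, had 2389 and 2408 in the knockouts and 1927 and 2075 in the controls (log2 fold change 0.26, limma: unadjusted p = 0.0220, adjusted p = 0.773). Vdac2, its relative, had 3180 and 3186 in the knockouts and 2984 and 2781 in the controls (limma: 0.14, adjusted p = 0.845, and 0.09 without control replicate 2). Of the 7 enzymes of the malate-aspartate and glycerol phosphate shuttles, Gpd1, which works in the glycerol phosphate shuttle, had the smallest p, with 479 and 506 in the knockouts and 712 and 524 in the controls (limma: log2 fold change -0.31, adjusted p = 0.833), and the log2 fold change became -0.09 on leaving out control replicate 1 and -0.53 on leaving out control replicate 2. Got1, the cytosolic aspartate aminotransferase, had 5224 and 4836 in the knockouts and 4656 and 4427 in the controls (limma: 0.15, adjusted p = 0.844, and 0.09 without knockout replicate 1). Only these 2 of the 7 enzymes did not overlap between the groups, against 35.6% of all genes, Gpd1 lying lower and Got1 higher in the knockouts. Of 7 tested partners of ADP/ATP exchange, Ak4 and Ak3, adenylate kinases of mitochondria, had the smallest p-values. Ak4 had 393 and 305 in the knockouts and 482 and 385 in the controls (limma: log2 fold change -0.31, adjusted p = 0.837), and Ak3 had 1240 and 1108 in the knockouts and 1229 and 1324 in the controls (limma: -0.12, adjusted p = 0.904). Both overlapped between the groups. In the carnitine shuttle Cpt1a had 531 and 581 in the knockouts and 631 and 779 in the controls, and Cpt2 had 1425 and 1355 in the knockouts and 1545 and 1700 in the controls. In both genes the knockouts lay below the controls (limma: log2 fold changes -0.34 and -0.22, adjusted p = 0.806 for each), and without control replicate 2 these were -0.19 and -0.15. Cpt1a and Cpt2 had the smallest p-values of the 6 genes of this list. The more abundant Cpt1b had 5760 and 4962 in the knockouts and 4945 and 4978 in the controls, and overlapped. Its log2 fold change was 0.11, that of Crat 0.03, of Slc22a5 -0.27 and of Acsl1 -0.11. Slc22a5 had 195 and 194 in the knockouts and 215 and 255 in the controls. Acsl1 had 8249 and 7926 in the knockouts and 8657 and 8760 in the controls. With Cpt1a and Cpt2, 4 of the 6 genes thus lay with both knockouts below both controls, against 17.5% of all genes.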

How the data were processed

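The authors used STAR 2.7.3a on GRCm38.p6, with mitochondrial insertions of the nuclear genome masked, and Salmon 1.1.0 for stranded quantification, and deposited counts divided by a DESeq2 1.26.0 size factor per library, a signal; 100% of these values were whole multiples of 1 read within 0.001. The deposited table of the authors' own comparison (fold changes, p-values) was not used. Genes with at least 10 in at least 2 of 4 libraries (14522) entered a two-sided limma 3.58.1 fit (R 4.3.3) of log2(value + 1) that used a variance trend, with p-values adjusted by Benjamini-Hochberg (0.05). Fold changes on this scale understate low genes. edgeR 4.0.16 and DESeq2 1.42.0 were run on the recovered reads. The fits were also run on simulated counts with known fold changes, whose variance followed the trend without differing between genes of a level. No outcome is given here, so this does not show which differences 2 hearts per group can call. Positions and exon lengths came from GENCODE vM21, which matched all 47 carriers. Members and lists were chosen with earlier results of these data known. Values in every heart are given for the 12 carriers with the smallest p, the 10 highest per kb, both genes of each pair, and 2 genes with the smallest p per list; others were named after their values were seen. A carrier, counted among the 39 tested, and a marker gene are not reported here by name. The titles number the hearts as biological replicates, so p-values set the group difference against the spread within the groups of these 4 hearts. In limma that spread is drawn toward that of other genes at a similar level. Alternatives covered pseudocount, filter, scaling, trend, block, tool and single hearts.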

Additional observations from a re-analysis of the deposited data

Results flagged for a closer look

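A pair of mice entered no comparison, because for each the title and the genotype field give opposite genotypes. The title of the WT-titled mouse goes with the genotype field Ssbp1-/-, and that of the KO-titled mouse with Ssbp1+/+. Among the 4 carriers with an unadjusted p under 0.05 in the hearts compared, their values were looked at wherever they exceeded both control hearts. Slc25a39 had 842 normalized counts in the WT-titled mouse and 655 in the KO-titled mouse, above 598 and 595 in the controls. Slc25a33 had 190 in the WT-titled mouse, above all 4 hearts compared, and 96.3 in the KO-titled mouse, above 57.7 and 83.5 in the controls. Slc25a34 had 2095 in the KO-titled mouse, above 1425 and 1834 in the controls, and Slc25a22 had 382 in the WT-titled mouse, above 320 and 334 in the controls.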

How the results depend on the processing

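No carrier was called by limma, edgeR or DESeq2 under any alternative run. Of the 11 genes called higher and 6 called lower over all genes, the counts were 17 higher with a filter of at least 50, 6 higher and 0 lower in limma without a mean-variance trend, and 43 higher and 19 lower in DESeq2. The replicate numbers of the titles pair nothing that the labels name. Deviations of same-numbered hearts correlated at 0.314 across 14522 genes, and the replicate block gave 23 higher and called no carrier. Leaving out single hearts gave 1 to 21 genes higher and 4 to 12 lower, 0 to 1 called among the SLC25 genes under other names (Ucp3), and a median of the carriers between -0.13 and 0.054; where 1 heart is left in a group it is assumed to vary like the other group. Without single hearts the log2 fold changes ranged from -0.11 to 0.036 for Slc25a11, -0.080 to 0.068 for Slc25a12, -0.46 to 0.16 for Slc25a28, -0.0051 to 0.18 for Slc25a36, -0.29 to 0.13 for Slc25a23, -0.53 to 0.14 for Slc25a24, -0.18 to 0.24 for Slc25a40, -0.88 to 0.064 for Slc25a1, -0.64 to 0.080 for Slc25a35, -0.055 to 0.35 for Slc25a17, -0.29 to 0.040 for Slc25a45, -0.32 to 0.50 for Slc25a30, -0.16 to 0.054 for Slc25a26, -0.60 to 0.34 for Slc25a14, -0.34 to 0.52 for Slc25a47, -0.15 to 0.26 for Slc25a27, -0.17 to 0.16 for Slc25a38, -1.71 to -0.42 for Ucp3 and -0.21 to 0.065 for Mtch1. Slc25a12 turned to 0.0081 with equal nuclear totals, 0.0089 with TMM factors and 0.00099 in edgeR, and Slc25a38 to 0.0060 with equal nuclear totals and 0.0069 with TMM factors. The ratio of Slc25a22 to Slc25a18 moved to -2.87 and -0.95 on the log2 scale with pseudocounts of 0.5 and 5. The log2 difference of the summed carriers, -0.03, was 0.25 per 1000000 of all rows and -0.047 as deposited. With 2 hearts per group, carriers at low counts such as Slc25a14 (95% interval -1.40 to 1.14) could not be placed within a 2-fold change. The cause of these changes was not tested.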

Other observations

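In the same mice with contradictory labels, Slc25a4 had 32866 normalized counts in the WT-titled mouse and 35398 in the KO-titled mouse, and Slc25a5 had 2070 in the WT-titled mouse and 1785 in the KO-titled mouse. Slc25a34 had 1615 in the WT-titled mouse and Slc25a22 had 321 in the KO-titled mouse. Slc25a37 had 313 in the WT-titled mouse and 263 in the KO-titled mouse, so that knockout replicate 2 with 425 held the highest value of all 6 mice.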
